A study of Mus musculus with 2 samples.

Results

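The granin genes Chga, Chgb, Scg2, Scg3 and Vgf and the islet amyloid polypeptide gene Iapp encode soluble cargo of the secretory granules in which beta cells store insulin. These 6 genes were taken by symbol from a table of 30868 features, each name matching 1 row, and all 6 passed the minimum of a mean RPKM of 1 that 13947 features reached. RPKM is the number of reads scaled by the listed length of the feature and by the depth of the library. A level set beside that of another gene thus rests on the listed lengths, while a ratio between the libraries does not. The RNA came from MIN6 cells, an insulin-secreting line grown from the islet tumour of a mouse whose insulin promoter drove a viral oncogene. It has 2 libraries. The library titled HGP came from cells labelled with high glucose and palmitate, and the library titled NGP came from cells whose treatment label, spelled "nomal", reads as normal. The treatment text gives glucose at 33.3 mmol/l, palmitate at 0.4 mmol/l and serum albumin at 0.5%. Since the text is attached to the HGP and the NGP sample alike, it does not say what medium the NGP cells had or whether palmitate was in it. Nothing else is given that sets the cells of the libraries apart, and no length of exposure is given.

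The libraries held 43727919 reads for HGP and 44149406 reads for NGP. With 1 library per group there is no replicate error and no test, and a difference between the libraries can be set only against counting error. Each ratio is HGP over NGP with an exact 95% interval for counting error, from the Clopper-Pearson interval of the HGP share of a gene's reads. All 10 beta cell markers searched for were found at a mean RPKM of 1 or more, with a summed level of 1121 RPKM in HGP and 1704 RPKM in NGP. Of 6 exocrine and duct markers with a row, only Krt7 reached a mean RPKM of 1. It had 17.95 RPKM in HGP and 16.1 RPKM in NGP, and its exons overlap a gene on the opposite strand. Krt19 was at 0 in both libraries. Of 10 stromal, endothelial and immune markers with a row, only Cd68 reached a mean RPKM of 1. It had 2.02 RPKM in HGP and 0.901 RPKM in NGP, and Kdr was at 0 in both. Of 4 genes listed as enterochromaffin markers, 3 had a row, and only Tph2 reached a mean RPKM of 1. It had 1.24 RPKM in HGP and 1.53 RPKM in NGP. Tph1, the other tryptophan hydroxylase gene of that list, had 2 reads in HGP and 10 reads in NGP.

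Granins are acidic proteins that bind calcium and aggregate in the trans-Golgi network, where they take part in forming dense-core granules, and convertases cut them into shorter peptides there and in the granule. Chga and Chgb encode the chromogranins. Scg2 encodes secretogranin II, the precursor of secretoneurin, and Scg3 encodes a cholesterol-binding granin that links chromogranin A to the granule membrane. Vgf, first described as a gene induced by nerve growth factor, encodes a peptide precursor that beta cells release with insulin. Iapp encodes amylin, which is stored and secreted with insulin and whose human form makes the amyloid deposits of islets in type II diabetes, while the mouse form does not readily do so.

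Chgb and Vgf were higher in HGP, Scg2 was somewhat lower, and Chga, Scg3 and Iapp stood within a few percent of the same level in both libraries. Log2 ratios were taken on the scale of log2(RPKM + 0.5), and a gene is counted here as higher or lower where its log2 ratio reached 0.32 in size. By this count 2 of the 6 genes were higher and 0 were lower. Among all 13947 features, 5.89% were higher and 6.04% were lower by the same count. Each list count below is to be read beside these shares. With 6 genes the count of 2 is small. None of the 6 differed by 1.5-fold or 2-fold, past which lay 3.23% and 0.903% of all features in either direction. The median log2 ratio of the 6 genes was 0.011, beside 0.0028 for all features. The ratios ran from -0.19 for Scg2 to 0.51 for Vgf, so genes of this cargo group did not differ between the libraries by a common factor.

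Chgb, the gene of chromogranin B, had 7345 RPKM in HGP and 5472 RPKM in NGP, from 880054 reads in HGP and 661898 reads in NGP. It took more reads than any other feature in both libraries. The ratio was 1.34 (1.338 to 1.347), a log2 ratio of 0.42, and 491 of the 13947 features had a higher log2 ratio. Chgb lies on the plus strand of chromosome 2 at 132623198 to 132636999 (GRCm39), with 5 separate exon blocks that sum to 2740 bases. Of 24 features of at least 300 bases whose mean RPKM was 1000 or more, Chgb was the 1 feature past 0.32 in the higher direction, and 0 were past it in the lower direction. Without the minimum on length there were 32 such features, of which 1 was past 0.32 in each direction. Both comparisons were chosen with the values known.

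Chga, the gene of chromogranin A, had 4644 RPKM in HGP and 4740 RPKM in NGP, a ratio of 0.980 (0.976 to 0.984). The interval lay below 1, but the difference was small beside the range from -0.36 to 0.35 on the log2 scale that held the features between the 5th and 95th percentiles. Chga, with 8 exon blocks, runs along the plus strand of chromosome 12 at 102521228 to 102531287. The chromogranins therefore differed in their proportion to each other. Chgb stood at 1.58 times the RPKM of Chga in HGP and at 1.15 times in NGP, and the ratio of these proportions was 1.37 (1.36 to 1.38, from a normal approximation on the log scale, counting error only).

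Scg2 had 1219.96 RPKM in HGP and 1393 RPKM in NGP, a ratio of 0.876 (0.869 to 0.882), from 134166 reads in HGP and 154709 reads in NGP. Scg3 had 981.0 RPKM in HGP and 972.0 RPKM in NGP, a ratio of 1.01 (1.001 to 1.018). With reads taken as pairs, as the many even counts among low features allow, the interval of Scg3 was 0.998 to 1.02 and held a ratio of 1. The secretogranins thus stood apart from each other: Scg2 was at 1.24 times the level of Scg3 in HGP and at 1.43 times in NGP. Scg2 lies on the minus strand of chromosome 1 at 79412386 to 79417837 with 2 exon blocks, and Scg3 on the minus strand of chromosome 9 at 75550471 to 75591338 with 14.

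Vgf was by far the least abundant of the 6 genes. It had 19.8 RPKM in HGP and 13.8 RPKM in NGP, from 2579 reads in HGP and 1811 reads in NGP. Its ratio of 1.44 (1.35 to 1.53) was the highest of the group, with the widest interval, and 332 of the 13947 features had a higher log2 ratio. Vgf, with 6 exon blocks, is on the plus strand of chromosome 5 at 137055246 to 137062205.

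Iapp had 4692 RPKM in HGP and 4664 RPKM in NGP, from 199821 reads in HGP and 200574 reads in NGP. The ratio was 1.01, and its interval of 0.9996 to 1.012 held a ratio of 1, as it did with reads taken as pairs (0.997 to 1.01). The intervals of Chga, Chgb, Scg2 and Vgf lay clear of 1 under both counts. Over all features the interval lay clear of 1 for 44.3%, so at this depth an interval clear of 1 is common. The gene is on the plus strand of chromosome 6 at 142244149 to 142249687, and its 3 exon blocks sum to 974 bases, the shortest of the group. None of the 6 genes shares an exon base with another feature of the table on either strand.

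**Figure D1:**
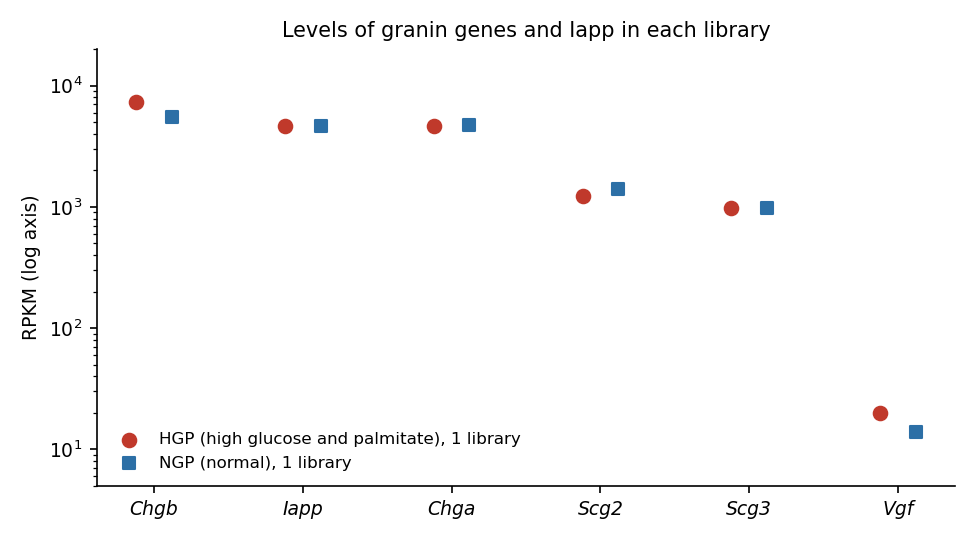
RPKM of the 5 granin genes and Iapp on a log axis, with HGP as circles and NGP as squares, 1 library each. Chgb, Iapp and Chga lie between 4644 and 7345 RPKM in both libraries, Scg2 and Scg3 between 972 and 1393 RPKM, and Vgf below 20 RPKM.

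**Figure D2:**
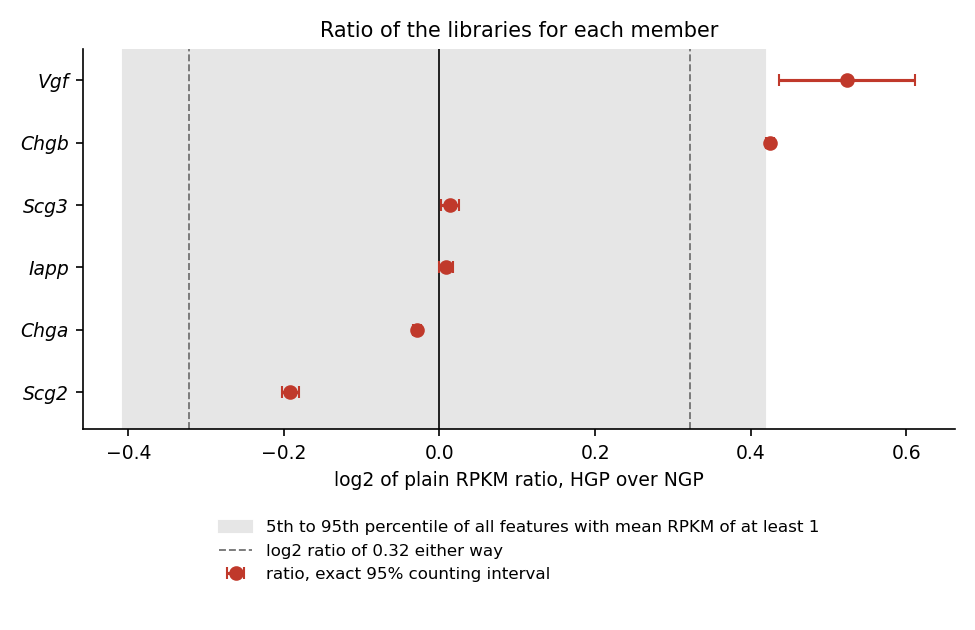
Log2 of the plain RPKM ratio, HGP over NGP, for each of the 6 genes, with exact 95% counting intervals, the range between the 5th and 95th percentiles of the 13947 features in grey (-0.41 to 0.42) and a log2 ratio of 0.32 either way as dashed lines. Vgf and Chgb lie to the right of the dashed line at 0.32, Chgb at the edge of the grey range, and the other genes lie well inside it.

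In the order of levels, Chgb came first among the 6 genes in both libraries, followed by Iapp and Chga in HGP and by Chga and Iapp in NGP. In HGP the RPKM of Iapp was 1.01 times that of Chga, and in NGP it was 0.984 times, so these neighbours lay within a few percent of each other in both libraries. Then came Scg2, Scg3 and Vgf. By RPKM, Chgb ranked 2nd of all 30868 features in both libraries, behind Gm54730, a predicted feature of 133 bases with 9907 RPKM in HGP and 8332 RPKM in NGP. In HGP, Iapp, Chga and Gm10925 followed at ranks 3, 4 and 5. In NGP, ranks 3, 4 and 5 were taken by Gm28661, Gm10925 and Chga, and Iapp was at rank 6. Vgf ranked 2663 in HGP and 3759 in NGP.

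**Figure D3:**
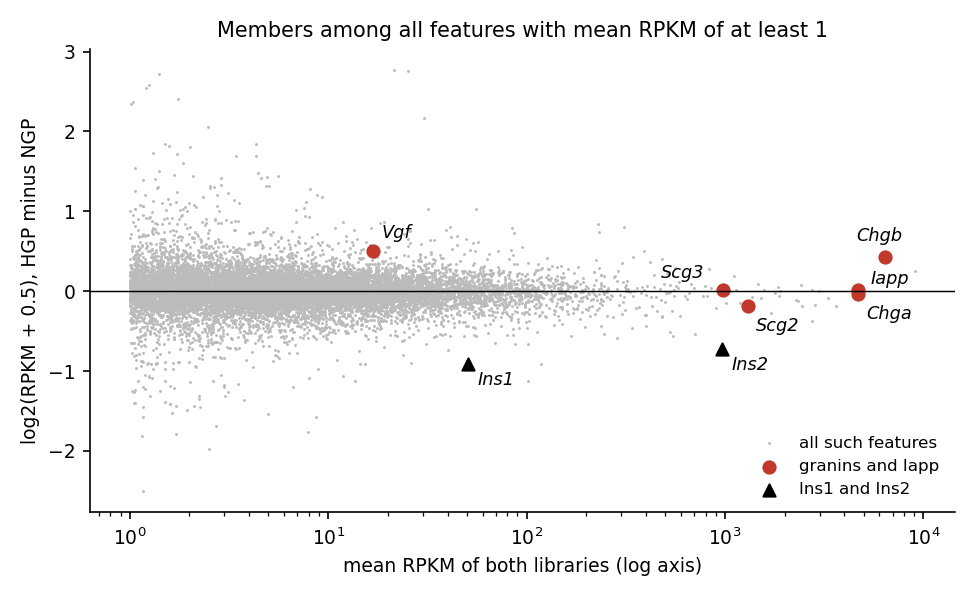
Difference of log2(RPKM + 0.5), HGP minus NGP, against the mean RPKM of both libraries on a log axis, for all 13947 features (grey), the 6 granin and Iapp genes (red circles) and Ins1 and Ins2 (black triangles). Chgb, Chga and Iapp lie at the abundant end, with Chgb at 0.42 on the vertical axis, and both insulin genes lie well below 0.

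Together the 6 genes took 4.33% of all reads in HGP (4.32 to 4.34) and 3.88% in NGP (3.87 to 3.89, both exact Clopper-Pearson intervals). Their summed RPKM was 18902 in HGP and 17255 in NGP, a ratio of 1.10. Chgb made up 38.9% of that sum in HGP and 31.7% in NGP. Without Chgb the sum was 11557 RPKM in HGP and 11783 RPKM in NGP, a ratio of 0.981. The higher sum in HGP was thus a matter of Chgb, which had 1874 RPKM more in HGP than in NGP.

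By RPKM, Chgb, Chga, Iapp and Scg2 stood above both insulin genes in both libraries. Scg3 stood above Ins2 in HGP and below it in NGP, and Vgf stood below both insulin genes. Ins2 had 725.4 RPKM in HGP and 1197 RPKM in NGP, and Ins1, the other mouse insulin gene, had 34.8 RPKM in HGP and 66.0 RPKM in NGP. The 6 genes summed to 24.9 times the RPKM of Ins1 and Ins2 in HGP and to 13.7 times in NGP. The order of the 6 genes against Ins1 and Ins2, and the size of this and the following proportions within a library, rest on listed lengths. Those lengths were not checked against the transcripts, and other lengths could change that order. No counting tool is named, so the handling of reads shared by Ins1 and Ins2 is not known. Iapp stood at 6.47 times the RPKM of Ins2 in HGP and at 3.897 times in NGP, so the proportion was 1.66-fold higher in HGP (1.64 to 1.68, normal approximation on the log scale). Chga over Ins2 was 6.402 in HGP and 3.96 in NGP. Chgb over Ins2 was 10.1 in HGP and 4.57 in NGP, 2.21-fold higher in HGP (2.19 to 2.24). For Iapp and Chga the proportion differed while their own levels stayed within a few percent, and Ins2 alone carried the difference. In these bulk samples fewer cells of a type and less RNA per cell cannot be told apart. Of the 10 beta cell markers, 7 were lower in HGP by at least 0.32, with Ins1, Ins2, Mafa and Pdx1 among them, and 0 were higher by that much. Over all features, 6.04% were lower and 5.89% were higher. The part of these markers in these proportions was not tested.

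**Figure D4:**
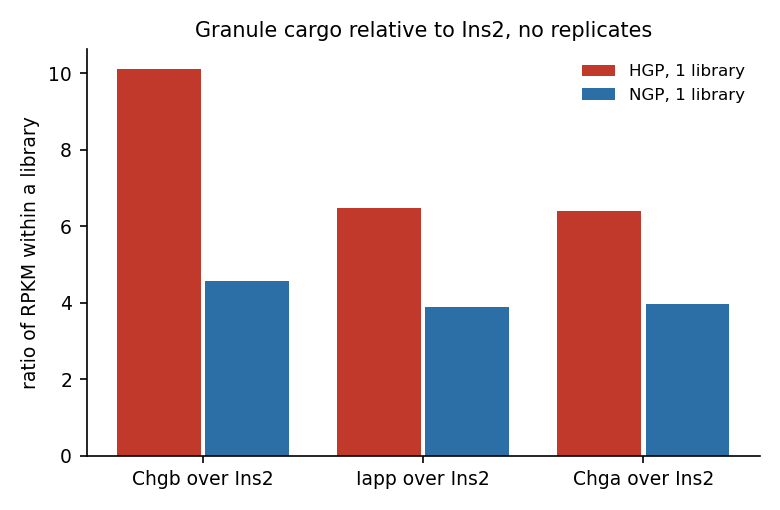
RPKM of Chgb, Iapp and Chga divided by the RPKM of Ins2 in the same library, HGP (red) left of NGP (blue), 1 library each and no error bars. Each bar is higher in HGP, 10.1 against 4.57 for Chgb, 6.47 against 3.897 for Iapp and 6.402 against 3.96 for Chga.

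Promoter sequences were looked at because several granin genes are known targets of factors that bind the cyclic AMP response element, TGACGTCA. The RefSeq promoter table (GRCm38.p6, a build older than that of the deposited table) held 5 of the 6 genes. Vgf was not matched. The 150 bases before the RefSeq start of 4 genes are shown 5′ to 3′ on the strand of the gene. They set Chgb, which was higher in HGP, beside Scg2, Chga and Iapp. Scg2 was somewhat lower but short of the log2 threshold, and Chga and Iapp were near equal. Capitals mark matches to TGACGTCA, to its first 5 letters TGACG, which overlap it, and to TATAA, each searched on both strands.
Chgb, chr2:132781492-132781641, plus strand: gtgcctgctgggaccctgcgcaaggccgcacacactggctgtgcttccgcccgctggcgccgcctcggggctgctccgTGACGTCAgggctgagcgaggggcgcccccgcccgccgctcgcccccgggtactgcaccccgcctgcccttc
Scg2, chr1:79440027-79440176, minus strand: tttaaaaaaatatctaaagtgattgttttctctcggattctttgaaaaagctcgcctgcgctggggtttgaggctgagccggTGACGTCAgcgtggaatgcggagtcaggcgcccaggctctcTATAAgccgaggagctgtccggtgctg
Chga, chr12:102554791-102554940, plus strand: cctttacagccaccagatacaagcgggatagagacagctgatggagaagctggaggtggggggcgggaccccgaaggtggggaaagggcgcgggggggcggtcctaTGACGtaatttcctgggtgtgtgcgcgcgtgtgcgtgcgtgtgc
Iapp, chr6:142298275-142298424, plus strand: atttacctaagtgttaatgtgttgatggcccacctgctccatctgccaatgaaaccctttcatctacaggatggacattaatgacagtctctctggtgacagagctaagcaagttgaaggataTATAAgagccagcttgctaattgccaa

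The full element TGACGTCA lay at positions -72 to -65 from the start in Chgb and at -68 to -61 in Scg2. These distances were nearly the same. Chgb, with a log2 ratio of 0.42, was counted as higher in HGP, while Scg2, with a log2 ratio of -0.19, was counted as neither higher nor lower. Within 250 bases before the start, 1.55% of 32851 promoter windows held the full element. The shorter TGACG was found in 4 of the 5 genes, Chga (-44 to -40), Chgb, Scg2 and Scg3 (-30 to -26), and in 17.8% of all windows. It was not found within this window of Iapp. TATAA lay at -27 to -23 in both Scg2 and Iapp and was found in 22.8% of all windows. The share of G and C in the 150 bases ran from 42.7% in Iapp to 77.3% in Chgb, beside a median of 54% over all windows. A match describes the letters of this window only, and no reading of factor binding is possible from these data.

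Regulators with known links to granin or Iapp transcription were listed as well. Of 15 genes, 2 were higher by at least 0.32, 1 was lower by that much and 12 lay between, with a median log2 ratio of 0.034. Crem, whose products bind the cyclic AMP response element, had 2.02 RPKM in HGP and 1.47 RPKM in NGP, a ratio of 1.38 (1.20 to 1.58). A predicted gene on the opposite strand shares exon bases with Crem. Creb1, the best known factor of that family, had 5.60 RPKM in HGP and 5.46 RPKM in NGP, and Rest, a repressor of neuroendocrine genes, had 3.25 RPKM in HGP and 3.14 RPKM in NGP. Pdx1, which binds the Iapp and insulin promoters, had 89.3 RPKM in HGP and 115.8 RPKM in NGP. Txnip, an inhibitor of thioredoxin that glucose induces, had 44.2 RPKM in HGP and 6.11 RPKM in NGP, and it too shares exon bases with an opposite-strand gene. The most abundant of the 15 was Neurod1, a beta cell transcription factor, at 148.9 RPKM in HGP and 151.4 RPKM in NGP. Its exons overlap those of Cerkl on the same strand.

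Other peptide cargo of granules held genes with log2 ratios of either sign. Of 19 genes listed, 15 were matched and 10 of these reached a mean RPKM of 1. Of the 10, 3 were higher, 5 were lower and 2 lay between, with a median log2 ratio of -0.23. Over all features, 5.89% were higher and 6.04% were lower. Ins1, Ins2 and Ucn3 are also among the beta cell markers, so the lists are not separate. Besides Ins1 and Ins2, Npy, the gene of neuropeptide Y, was lower at 63.8 RPKM in HGP and 139.7 RPKM in NGP. Ucn3 and Gcg were also among the lower genes, with log2 ratios of -0.34 and -0.59. The higher genes were Pdyn, the prodynorphin gene, at 55.4 RPKM in HGP and 34.1 RPKM in NGP, Sst, the somatostatin gene, at 9.67 RPKM in HGP and 7.45 RPKM in NGP, and Nucb2. Nucb2, the precursor gene of nesfatin, had 144.2 RPKM in HGP and 108.3 RPKM in NGP, a ratio of 1.33 (1.30 to 1.36), close to that of Chgb. Gast was at 0 in both libraries.

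The enzymes that cut and modify granins and pro-Iapp were listed together with genes related to the granins. Of 9 measured genes, 0 were higher and 1 was lower, with a median log2 ratio of 0.0025, and plain ratios ran from 0.754 for Pcsk1n to 1.21 for Pam. The lower gene was Pcsk1n, which encodes a granin-like inhibitor of a prohormone convertase, at 17.8 RPKM in HGP and 23.6 RPKM in NGP, a ratio of 0.754 (0.708 to 0.803). Cpe, the carboxypeptidase that trims the cut ends, was the most abundant, at 326.4 RPKM in HGP and 325.8 RPKM in NGP. Pcsk2, a convertase that cuts pro-Iapp, had 72.4 RPKM in HGP and 89.9 RPKM in NGP, and its exons overlap genes on the opposite strand. Pam, which amidates the end of amylin, had 39.0 RPKM in HGP and 32.3 RPKM in NGP, and its exons overlap a gene on the same strand. Scg5, the granin-related chaperone of Pcsk2, had 92.5 RPKM in HGP and 91.8 RPKM in NGP.

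The counts in the lists of granule membrane and granule biogenesis genes were near the shares over all features, 5.89% higher and 6.04% lower, and show nothing particular to these lists. Of 18 measured membrane genes, 0 were higher and 1 was lower, with a median log2 ratio of -0.06. The lower gene was Sv2b, a vesicle glycoprotein gene, at 1.72 RPKM in HGP and 4.08 RPKM in NGP. Cyb561, the granule cytochrome gene, had 6.32 RPKM in HGP and 4.998 RPKM in NGP, and Ptprn, which encodes a granule membrane protein and islet autoantigen, had 57.2 RPKM in HGP and 48.4 RPKM in NGP. Exons of Sv2b, Cyb561 and Ptprn overlap genes on the opposite strand. The zinc transporter gene Slc30a8 was the most abundant, at 134.9 RPKM in HGP and 148.9 RPKM in NGP. Of 22 genes of granule biogenesis, 1 was higher and 0 were lower, with a median log2 ratio of 0.037. The higher gene was Hid1, which acts at the trans-Golgi network in granule formation, at 5.64 RPKM in HGP and 4.13 RPKM in NGP, a ratio of 1.37 (1.249 to 1.496). The SNARE gene Vamp4 had 14.1 RPKM in HGP and 17.2 RPKM in NGP, and the synaptotagmin gene Syt4, which shares exon bases with an opposite-strand gene, had 53.5 RPKM in HGP and 44.8 RPKM in NGP.

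**Figure D5:**
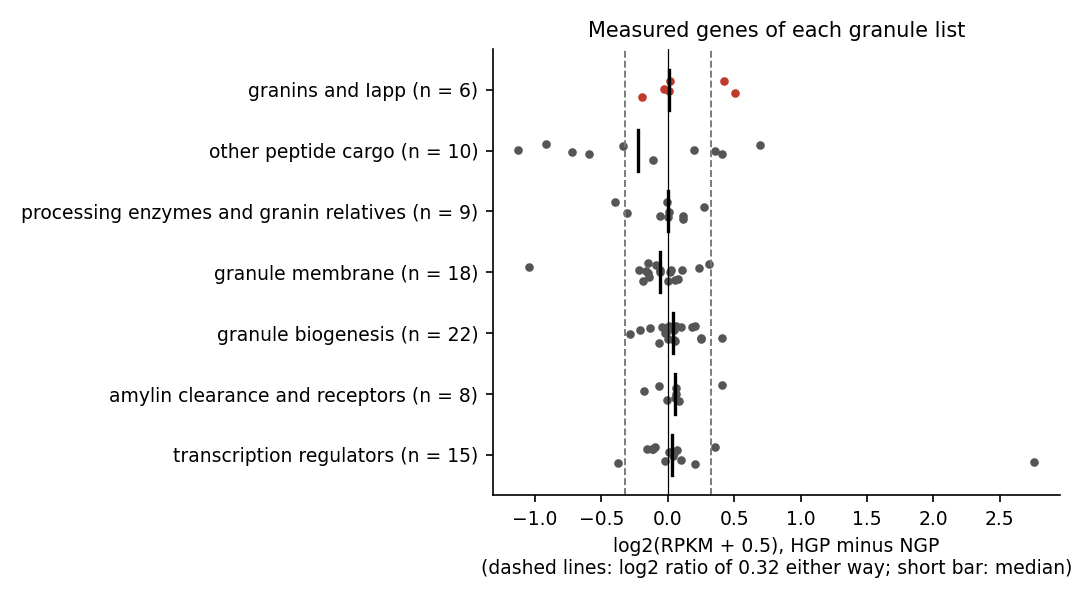
Difference of log2(RPKM + 0.5), HGP minus NGP, for each measured gene of 7 lists, with 1 point per gene, a short bar at the median and dashed lines at a log2 ratio of 0.32 either way. The list of other peptide cargo spreads from -1.12 for Npy to 0.69 for Pdyn, while the granin and Iapp genes lie between -0.19 and 0.51.

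The last list held genes that clear amylin or serve as receptors for amylin and granin peptides. Of 8 measured genes, 1 was higher and 0 were lower, with a median log2 ratio of 0.057. The higher gene was Apoe, an apolipoprotein gene, at 4.27 RPKM in HGP and 3.08 RPKM in NGP. Bace2, a protease gene and the most abundant of the 8, had 31.2 RPKM in HGP and 35.5 RPKM in NGP. Ide, the gene of insulin-degrading enzyme, which also degrades amylin, had 8.48 RPKM in HGP and 8.14 RPKM in NGP. Ramp1, a subunit gene of amylin receptors, had 2.92 RPKM in HGP and 2.72 RPKM in NGP, and C3ar1, a receptor gene for a Vgf peptide, was at 0 in both. Calcr, the calcitonin receptor gene, was listed too but had no matching row.

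Vgf had the largest log2 ratio of the 6 genes, so likeness was measured from it, as the distance in log2 ratio over 2 libraries among 310 named genes whose length was 300 bases or more and whose mean RPKM was 100 or more. The nearest 5 were Nucb2 at a log2 ratio of 0.41, Calr at 0.40, Morf4l2 at 0.35, Nop14 at 0.3195 and P4hb at 0.31. Nop14 and P4hb fell short of the threshold, which is 0.3219 with more digits. The differences of the 5 genes from Vgf ran from -0.098 for Nucb2 to -0.20 for P4hb. The same 5 genes were the nearest to Chgb, with differences from -0.014 for Nucb2 to -0.11 for P4hb. All 5 lay below both members, so the shared list follows from the few higher genes of this pool. Vgf itself, at 19.8 RPKM in HGP and 13.8 RPKM in NGP, did not reach the level asked of the pool. Features outside the pool that may lie nearer to Vgf were not considered. Calr and P4hb encode folding proteins of the endoplasmic reticulum. Exons of Morf4l2 and Nop14 overlap genes on the opposite strand. With 2 libraries, likeness means only a similar ratio. Of the 310 genes, 6 were higher and 11 were lower by at least 0.32.

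A list of noncoding RNAs, some of them long nuclear RNAs whose levels can shift with RNA quality, was read beside Chgb and Vgf. Of 7 genes, 4 reached a mean RPKM of 1, and 2 of these 4 were higher by at least 0.32, Snhg1 at 15.1 RPKM in HGP and 10.8 RPKM in NGP and Rn7sk with 38 reads in HGP and 12 reads in NGP. The long nuclear RNAs Neat1 and Malat1 did not reach 0.32, with log2 ratios of 0.29 and 0.058. All 4 measured genes had log2 ratios above 0, with a median of 0.38. Neat1 had 18.05 RPKM in HGP and 14.6 RPKM in NGP, and Malat1 had 318.1 RPKM in HGP and 305.6 RPKM in NGP. The list summed to 354.2 RPKM in HGP and 332.1 RPKM in NGP over 7 genes. Exons of Snhg1, Neat1 and Malat1 overlap other features on the same strand. Those of Neat1 and Malat1 also overlap features on the opposite strand. Markers of other islet cells summed to 46.2 RPKM in HGP and 35.5 RPKM in NGP over 5 genes with a row. Of these, 3 reached a mean RPKM of 1, and Gc and Sst were higher and Gcg was lower by at least 0.32. Gc made up most of the sum, at 31.5 RPKM in HGP and 20.5 RPKM in NGP, while Gcg had 4.68 RPKM in HGP and 7.31 RPKM in NGP. The part of these RNAs and markers in the Chgb and Vgf differences was not tested.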

How the data were processed

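RNA from MIN6 cells was sequenced as 1 library per group after a stranded mRNA library preparation from 1 µg RNA, per the labels' protocols. The deposited values are RPKM computed by the authors, and the submitters' processing notes name Trimmomatic 0.36, edgeR 3.12.1 and build GRCm39. No aligner, counting tool, annotation or strand setting is named there. Columns were matched to samples by title. Each RPKM times its feature's length, divided by the size of the step between values, came to whole reads for 100% of values within 0.01 read. Intervals cover counting error only, since each group has 1 library. Reads lacked molecular identifiers, and PCR copies are not separate molecules, so the intervals may be too narrow. Log2 ratios use RPKM plus 0.5, while printed ratios are plain RPKM ratios, and only features whose mean RPKM reached 1 were compared.

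The members, gene lists, the log2 threshold of 0.32 and the motifs were chosen with earlier results of these data known, and the motifs with the sequences in view. The text names the 6 genes, both insulin genes, the 5 features of highest RPKM per library, and, of each list other than cell type markers, the 3 genes with the largest log2 ratio in size and the most abundant one. It also names the 5 genes nearest in log2 ratio to the member with the largest one. They were taken from named genes of at least 300 bases with a mean RPKM of at least 100. Further list genes are named to complete small counts or as examples, and were chosen after their values were seen. List symbols without a matching row were not analysed here. Deposited coordinates are GRCm39, and promoter sequences are RefSeq on GRCm38.p6. The steps were tested on simulated data in Python 3.11.15 with SciPy 1.17.1. Alternatives were other pseudocounts, scalings, folds, filters and reads taken as pairs.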

Additional observations from a re-analysis of the deposited data

How the results depend on the processing

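The count of 2 genes higher and 0 lower by a log2 ratio of at least 0.32 was the same with pseudocounts of 0.1 and 1. It was also the same with median-of-ratios scaling, and with totals that left out the 10 features with most reads or the 6 genes. Rescaling to the same total over all features has a factor of 1 and could change nothing. The count was 0 higher at 1.5-fold and 0 at 2-fold. Leaving the 10 features with most reads out of the total gave log2 ratios of -0.022 for Chga and 0.43 for Chgb, and leaving out the 6 genes gave -0.022 for Chga and 0.43 for Chgb, small moves that exceed the narrow counting intervals. The other 4 genes stayed within their intervals under those scalings, and no scaling moved the median of all features by more than 0.0069. The features past 0.32 numbered 822 higher and 843 lower. They numbered 243 and 207 at 1.5-fold, 75 and 51 at 2-fold, 278 and 371 at a mean RPKM of at least 5, and 2150 and 1930 with no filter. Without the other most abundant features in the total, the 6 genes took 4.46% of reads in HGP and 4.0002% in NGP. Many features with 1 to 10 reads had even counts, 77.8% in HGP and 77.1% in NGP. Had each pair been counted by both its mates, the intervals would be too narrow, and with reads taken as pairs those of Scg3 (0.998 to 1.02) and Iapp (0.997 to 1.01) held a ratio of 1. No paired analysis was possible because each group has 1 library and no result comes from a test.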
